A study of Mus musculus with 16 samples.

Results

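Laminins and the proteins that join them into basement membranes were followed across germ cell preparations of the mouse testis. The 9 genes were the laminin chains Lama1, Lama2, Lama4, Lama5, Lamb2 and Lamc1, the nidogens Nid1 and Nid2, and Hspg2, which encodes perlecan. They were 9 of 22293 gene symbols that the expression files list once, and each was present in all 16 libraries. They were chosen with the measured expression values of these same groups in view, with no threshold stated. Their levels and differences are therefore given as a description with no p-value, and a count of members past a threshold supports nothing about them.

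RNA of isolated spermatogonia, isolated spermatocytes and cultured spermatogonial stem cells was sequenced from male mice of the strain given as C57;ICR, wildtype or knockout. Spermatogonia came from pups aged 6 to 7 days (2 wildtype and 2 knockout libraries), spermatocytes from adults (3 and 3), and the cultures were started from cells of pups aged 6 to 7 days (3 and 3). The stem cells were grown with the growth factors GDNF and bFGF, and no other culture component was stated in the labels. The labels give the mutant as KO, and the title of the series names microRNA-202. The design text of the series speaks of biological replicates, and the labels do not tie libraries to single animals, so p-values measure the spread between these libraries. Mir202, the gene named by the title, was listed at 0 in all 16 libraries, so its level could not check the genotype labels.

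A laminin is a trimer of 1 alpha, 1 beta and 1 gamma chain, and the alpha chain carries the sites that bind cell surface receptors. Nidogens link laminin to type IV collagen, the other network of the basement membrane, and perlecan is a large heparan sulfate proteoglycan that binds to these components. In the testis a basement membrane surrounds each seminiferous tubule, with Sertoli cells and spermatogonia resting on its inner face and peritubular myoid cells on its outer face.

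Levels are the authors' deposited FPKM, which counts the fragments of a transcript per kilobase of its length, in proportion to all fragments mapped in the library. FPKM is per length, so levels of different genes are set beside each other here as a rough comparison. How reads were split among overlapping genes is not stated. The FPKM of a library summed to between 262109 and 395564. Differences are on the log2(FPKM + 1) scale with their standard error (SE), a scale on which weakly expressed genes show less than their full change. A gene was tested in a comparison when 2 or more libraries of the cell types compared reached an FPKM of 1, and called when limma's adjusted p was under 0.05. A gene could thus enter through the genotype in which it was high, and its call was then partly set by the filter. In these bulk preparations, fewer cells of a type and less RNA per cell cannot be told apart.

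Germ cell identity was checked with marker genes. The summed FPKM of 7 spermatocyte markers was 3783 to 4413 in spermatocyte libraries and at most 134 elsewhere, and that of 7 markers of undifferentiated spermatogonia was highest in the cultures (254 to 384). Spermatogonial libraries also carried markers of Sertoli cells, with a summed FPKM of 492 to 877 against 6.42 to 36.9 in all other libraries. Spermatid markers summed to 1218 to 4699 in the spermatocyte libraries. A pair of libraries stood apart for the genes described here. Replicate 3 of the wildtype cultures was lowest of its group for 9 of 9 genes, and replicate 3 of the knockout spermatocytes was highest of its group for 9 of 9.

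**Figure D1:**
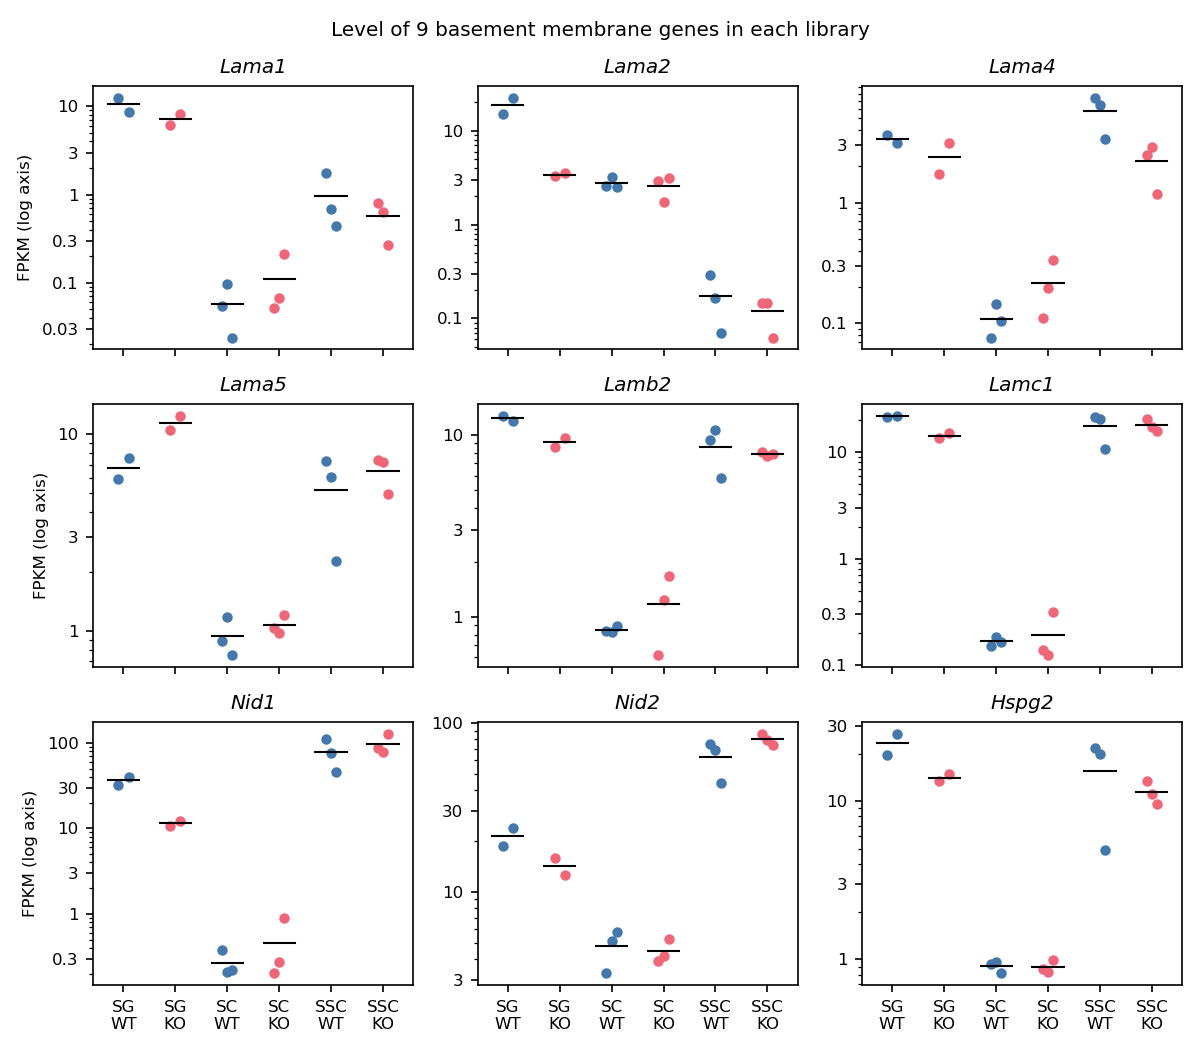
FPKM (log axes, which differ between panels) of the 9 genes in each library of spermatogonia (SG), spermatocytes (SC) and cultured spermatogonial stem cells (SSC), wildtype (WT, blue) or knockout (KO, red), with a bar at the mean of each group of 2 or 3 libraries. Spermatocytes were lowest for 8 of 9 genes; Lama2 was lowest in the cultures.

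The alpha chains separated the preparations from each other. Lama1, the alpha chain of laminin-111, was highest in spermatogonia. It stood at 12.5 and 8.59 FPKM in the wildtype spermatogonia and at 6.14 and 8.17 in the knockout. In the cultures it was at 1.76, 0.689 and 0.439 in the wildtype and at 0.805, 0.641 and 0.270 in the knockout. All spermatocyte libraries were between 0.0239 and 0.211. Every spermatogonial library was above every other library, and the wildtype and knockout ranges overlapped in spermatocytes and in cultures. In spermatogonia both knockout libraries were below both wildtype ones by a narrow margin (log2 difference -0.49, SE 0.26).

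Lama2, the alpha chain of laminin-211 and the chain mutated in a human congenital muscular dystrophy, showed the largest knockout difference of the 9 genes in spermatogonia. The wildtype pair held 15.1 and 22.3 FPKM and the knockout pair 3.27 and 3.54. The knockout mean was 0.182 times the wildtype mean (log2 difference -2.14, SE 0.21). In spermatocytes it was at 2.58, 3.23 and 2.54 in the wildtype and at 2.93, 1.75 and 3.14 in the knockout, with overlapping ranges. The knockout spermatogonia thus lay just above the spermatocyte libraries, whose highest value was 3.23. In the cultures Lama2 was at 0.291, 0.164 and 0.0691 in the wildtype and at 0.146, 0.148 and 0.0626 in the knockout, below 1 FPKM in every library, and it was not tested there.

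Lama4, an alpha chain of endothelial and mesenchymal basement membranes, was the 1 member whose genotypes did not overlap in the cultures. Its FPKM was 7.36, 6.50 and 3.38 in the wildtype cultures and 2.50, 2.91 and 1.18 in the knockout cultures (log2 difference -1.07, SE 0.24). In spermatogonia it was at 3.66 and 3.10 in the wildtype and at 1.72 and 3.09 in the knockout. The nearest libraries of the genotypes there almost coincided, and the log2 difference was -0.39 (SE 0.30). Spermatocytes held 0.0765 to 0.337 FPKM, and 3 of 3 knockout libraries lay within or above the wildtype range of 0.0765 to 0.144.

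Lama5, the alpha chain of laminin-511 and widespread in epithelial basement membranes, was the 1 member with a higher level in knockout spermatogonia. It was at 5.89 and 7.59 FPKM in the wildtype and at 10.5 and 12.4 in the knockout, without overlap (log2 difference 0.69, SE 0.32). In the cultures it was at 7.32, 6.08 and 2.28 in the wildtype and at 7.41, 7.22 and 4.96 in the knockout. Those ranges overlapped, and the difference of 0.36 (SE 0.26) was -0.04 without replicate 3 of the wildtype cultures. In spermatocytes it was near 1 FPKM in all 6 libraries (0.752 to 1.21).

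Set against the sum of all 5 alpha chains (the 4 members plus Lama3), these levels gave each preparation its own make-up. In wildtype spermatogonia Lama2 held 38.7% and 51.9% of the alpha chain FPKM and Lama5 held 15.1% and 17.7%. In knockout spermatogonia Lama2 held 14.0% and 12.3% and Lama5 held 44.9% and 43.0%. Lama2 thus held the largest share in the wildtype and Lama5 in the knockout. The alpha chain sum was 41.0 ± 2.79 FPKM in the wildtype and 26.1 ± 3.85 in the knockout (SD, n = 2 each). A share can therefore rise because other chains are lower. The share of Lama1 was 26.0% ± 8.45 in the wildtype and 27.3% ± 1.45 in the knockout (SD, n = 2 each). Spermatocytes of both genotypes were led by Lama2, at 71.6% ± 2.62 in the wildtype and 64.4% ± 6.22 in the knockout (SD, n = 3 each), of alpha chain sums of 3.91 and 4.01 FPKM. In the cultures Lama4 held 45.0% ± 4.82 and Lama5 38.5% ± 3.96 in the wildtype (SD, n = 3 each). In the knockout cultures Lama4 held 18.3% ± 5.60 and Lama5 55.6% ± 4.48 (SD, n = 3 each). In every knockout culture Lama5 was the leading alpha chain, whereas Lama4 led in every wildtype culture, by 41.0% against 40.8% in replicate 1. Lama3 held 8.26% ± 1.49 of the sum in the wildtype cultures and 20.3% ± 11.7 in the knockout cultures (SD, n = 3 each), with 33.8% in replicate 3 of the knockout. The alpha chain sum was 13.2 ± 5.81 FPKM in the wildtype and 11.7 ± 1.63 in the knockout cultures (SD, n = 3 each).

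**Figure D2:**
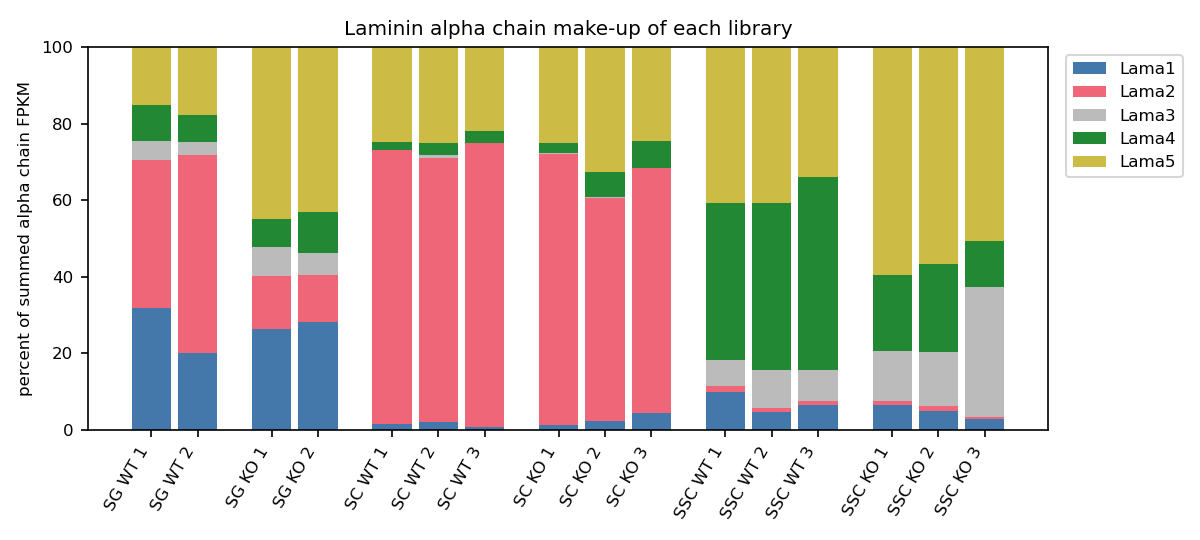
Stacked bars give each laminin alpha chain as a percent of the summed FPKM of Lama1, Lama2, Lama3, Lama4 and Lama5 in each of the 16 libraries. Lama2 holds 38.7% and 51.9% in wildtype and 14.0% and 12.3% in knockout spermatogonia, and Lama4 holds 41.0% to 50.3% in wildtype and 12.1% to 22.9% in knockout cultures.

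The beta and gamma chains complete the trimers. Lamb2, the laminin beta 2 chain, was at 12.8 and 12.0 FPKM in wildtype and 8.59 and 9.65 in knockout spermatogonia. The cultures held 9.38, 10.6 and 5.80 in the wildtype and 8.08, 7.64 and 7.86 in the knockout. The 2 genotypes did not overlap in spermatogonia (log2 difference -0.40, SE 0.24) and did in the cultures (-0.08, SE 0.19). Spermatocytes were at 0.835, 0.823 and 0.896 in the wildtype and at 0.616, 1.24 and 1.67 in the knockout, so the knockout libraries lay on both sides of the wildtype.

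Lamc1, the gamma 1 chain shared by most laminin trimers, was at 21.5 and 22.0 FPKM in wildtype and 13.6 and 15.0 in knockout spermatogonia (log2 difference -0.57, SE 0.24). The cultures held 21.4, 20.3 and 10.6 in the wildtype and 20.5, 17.4 and 15.8 in the knockout, with a difference of 0.09 (SE 0.20). Its level in spermatocytes was 0.123 to 0.314. Spermatocytes therefore listed little of the gamma chain while they still listed Lama2 at 1.75 to 3.23. The ratio of Lamc1 to Lamb2 was 1.76 ± 0.109 in wildtype spermatogonia (SD, n = 2), 2.01 ± 0.245 in wildtype cultures (SD, n = 3) and 0.196 ± 0.0236 in wildtype spermatocytes (SD, n = 3).

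The nidogens were the most abundant of the 9 genes in the cultures. Nid1 was at 112, 76.5 and 45.4 FPKM in the wildtype cultures and at 88.5, 78.6 and 130 in the knockout cultures, with overlap. In spermatogonia it was at 32.5 and 40.6 in the wildtype and at 10.6 and 12.3 in the knockout. There the knockout mean was 0.314 times the wildtype mean (log2 difference -1.59, SE 0.33). Spermatocytes held 0.373, 0.207 and 0.220 in the wildtype and 0.203, 0.274 and 0.896 in the knockout, the last in the library that was highest for all 9 genes.

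Nid2 was at 75.0, 68.7 and 43.8 FPKM in the wildtype cultures and at 86.5, 78.8 and 74.2 in the knockout cultures. Spermatogonia held 18.7 and 24.0 in the wildtype and 15.9 and 12.6 in the knockout (log2 difference -0.55, SE 0.25). It was the member with the highest level in spermatocytes, at 3.30, 5.12 and 5.80 in the wildtype and 3.87, 4.18 and 5.26 in the knockout. The 2 nidogens thus parted in spermatocytes, where Nid1 was 0.0638 ± 0.0427 times Nid2 in the wildtype (SD, n = 3). The same ratio was 1.71 ± 0.0314 in wildtype spermatogonia and 0.823 ± 0.220 in the knockout (SD, n = 2 each). In the cultures it was 1.21 ± 0.242 in the wildtype and 1.26 ± 0.425 in the knockout (SD, n = 3 each). Together the nidogens made up 37.4% ± 1.87 of the summed FPKM of the 9 genes in wildtype spermatogonia (SD, n = 2) and 72.9% ± 3.53 in wildtype cultures (SD, n = 3).

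Perlecan's gene Hspg2 was at 19.6 and 26.8 FPKM in wildtype and 13.3 and 14.8 in knockout spermatogonia, without overlap (log2 difference -0.67, SE 0.43). The wildtype cultures were at 21.6, 19.8 and 4.92 and the knockout cultures at 13.4, 11.1 and 9.56. The third wildtype culture was the lowest of the 6, and the difference of -0.20 (SE 0.35) became -0.82 without it. Spermatocytes held 0.821 to 0.991 in all 6 libraries.

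Counted together, 8 of the 9 genes were lower in both knockout than in both wildtype spermatogonial libraries and 1, Lama5, was higher. Libraries did not overlap in 56.1% of all 11997 genes tested in spermatogonia (34.9% lower and 21.2% higher). Of the 9, Lama2 and Nid1 were called lower and 0 were called higher, beside 5.76% of all genes called lower and 0.917% called higher. The median log2 difference of the 9 was -0.55, beside -0.06 over all genes tested. The choice of members used this contrast, so nothing is read from these counts. Leaving out any 1 of the 4 libraries lowered the number of all genes called lower from 691 to between 323 and 436. It also left 1 library in an arm, which was then assumed to vary like the other groups. Nid1 was no longer past the threshold with a pseudocount of 0.1, without replicate 2 of the wildtype and without replicate 1 of the knockout.

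In the cultures 7 of the 9 genes were tested, and 1 of these, Lama4, was called lower, beside 5.84% of 12046 genes called lower and 0.324% called higher. Lama4 was also the 1 gene of the 9 whose libraries did not overlap, beside 18.3% of all genes tested. It was no longer past the threshold in 5 of 12 alternatives, 3 of which left out a library (replicate 1 or 2 of the wildtype, or replicate 3 of the knockout). Its log2 difference was between -1.35 and -0.81 when 1 library was left out. The choice of members used this contrast too. The median difference of the 7 tested genes was 0.09, beside -0.02 over all genes. In spermatocytes 4 of the 9 genes were tested, 0 were called and all 9 overlapped, beside 0.00974% of 10271 genes called and 7.96% without overlap. The knockout and wildtype libraries of each cell type are separate, so these 3 contrasts share no controls. They do share 1 estimate of the spread of each gene over all 16 libraries, so their standard errors and calls are not separate.

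**Figure D3:**
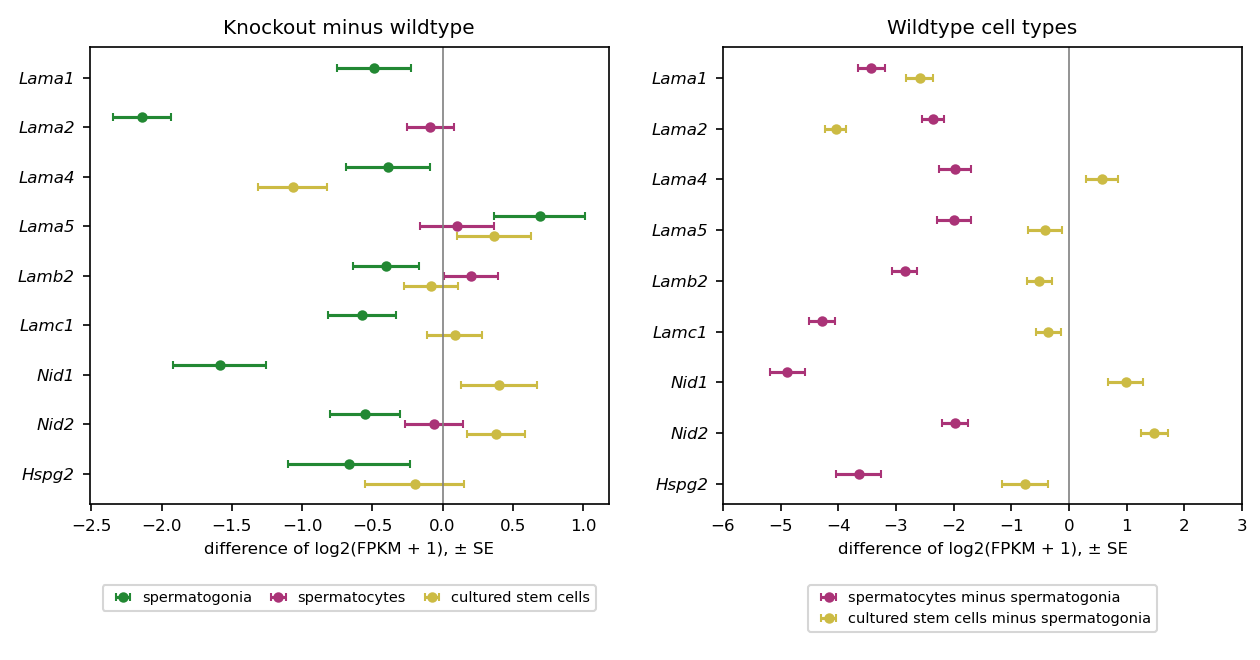
Left, knockout minus wildtype difference of each tested gene in log2(FPKM + 1) in spermatogonia, spermatocytes and cultured stem cells; right, wildtype spermatocytes and wildtype cultures minus wildtype spermatogonia; points are limma estimates and bars are ± SE. In spermatogonia Lama2 lies at -2.14 and Nid1 at -1.59 while Lama5 lies at 0.69; in cultures Lama4 lies at -1.07.

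Among the wildtype cell types, every member was lower in spermatocytes than in spermatogonia. The log2 differences ran from -1.98 for Nid2 and Lama4 to -4.88 for Nid1, and 9 of 9 were called lower, beside 55.2% of 13806 genes called lower. The choice of members used the wildtype groups as well, so these counts are a description. The cultures compared with spermatogonia gave a split. Nid1 (0.99, SE 0.30) and Nid2 (1.48, SE 0.23) were called higher, and Lama1 (-2.59, SE 0.24) and Lama2 (-4.05, SE 0.19) were called lower. These 2 and 2 of 9 stand beside 30.5% of 12902 genes called higher and 22.6% called lower. Nid1 lost its call with a fit to these groups alone, with a pseudocount of 0.1, or without replicate 1 of either group. The other 5 members were not called, with differences from -0.77 for Hspg2 to 0.57 for Lama4. Of these, Lama4 and Lamb2 were each past the threshold in 3 of 11 alternatives and Hspg2 in 2. Lama4 passed without replicate 3 of the wildtype cultures, Lamb2 without replicate 2, and Hspg2 without replicate 1 or 2. The difference of Hspg2 ran from -1.11 to -0.14 when 1 library was left out. Against the cultures, wildtype spermatocytes were lower for 7 of 8 tested members and higher for Lama2 (1.69, SE 0.17), beside 56.9% of 13864 genes called lower and 33.2% called higher. These comparisons of wildtype groups share libraries with each other and with the knockout contrasts.

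The order of the groups differed from gene to gene. For Lama2 the libraries of wildtype spermatogonia lay above those of knockout spermatogonia, and these above both spermatocyte groups, which lay above both culture groups. For Nid1 and Nid2 both culture groups lay above wildtype spermatogonia, these above knockout spermatogonia, and these above spermatocytes. For Lama4 the wildtype cultures overlapped the wildtype spermatogonia, and the knockout cultures overlapped the knockout spermatogonia. For Lama5 the knockout spermatogonia lay above all other libraries, and the wildtype spermatogonia overlapped both culture groups. For Lamb2, Lamc1 and Hspg2 neighbouring groups among the knockout spermatogonia and the cultures overlapped, and spermatocytes lay below all. Over the 16 libraries the levels of Lamb2 and Lamc1 had a Pearson r of 0.986 and those of Nid1 and Nid2 one of 0.971, while Lama2 and Nid2 had one of -0.52. These correlations describe libraries that fall into 3 cell types, and they carry no test.

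The genes with the levels most like each member over the 16 libraries were looked up among 10230 genes with a mean FPKM of at least 5 in some group. They were chosen by the highest Pearson r on the log2(FPKM + 1) scale, leaving out the members and the pathway genes described below. Lama2 stood closest to Mtap2 (r = 0.955) and to Mylk (r = 0.949), which encodes myosin light chain kinase and is on the peritubular myoid list used here. Lama4 stood closest to Thbs1 (0.973), which encodes the matrix protein thrombospondin 1, and to Bmp1 (0.971), a protease that processes collagen. The closest gene was Sema5a for Lama1 (0.994), Nbeal2 for Lama5 (0.981), Kdm5c for Lamb2 (0.994) and Aff1 for Lamc1 (0.998). It was Ipo8 for Nid1 (0.993), Samhd1 for Nid2 (0.993) and Arhgef12 for Hspg2 (0.988). The second closest gene is given for Lama2 and Lama4 alone, so no theme is read from those names. All these values rest on differences between 3 cell types, and the libraries of a group share their source.

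The promoters of Lama2 and Nid1, the members with the lowest differences in knockout spermatogonia, and of Lama5, the member with a higher level there, are shown for comparison. They were read from RefSeq on GRCm38.p6, from 250 bases before to 50 after the gene's start, on the gene's strand. Entries were found for 5 of the 9 members (Lama2, Lama5, Lamb2, Nid1 and Hspg2). Capitals mark GGGCGG, the GC box bound by Sp1-type factors, on either strand, and the CArG box, a 10-base element bound by serum response factor. The Lama2 window is chr10:27616893-27617192 (minus strand), that of Nid1 chr13:13437352-13437651 (plus strand) and that of Lama5 chr2:180225810-180226109 (minus strand).
Lama2: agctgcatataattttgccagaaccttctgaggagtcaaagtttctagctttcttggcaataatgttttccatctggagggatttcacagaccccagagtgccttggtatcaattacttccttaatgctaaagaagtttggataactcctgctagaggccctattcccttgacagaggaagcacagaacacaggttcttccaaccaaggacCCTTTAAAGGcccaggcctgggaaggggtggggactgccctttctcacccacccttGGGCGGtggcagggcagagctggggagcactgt
Nid1: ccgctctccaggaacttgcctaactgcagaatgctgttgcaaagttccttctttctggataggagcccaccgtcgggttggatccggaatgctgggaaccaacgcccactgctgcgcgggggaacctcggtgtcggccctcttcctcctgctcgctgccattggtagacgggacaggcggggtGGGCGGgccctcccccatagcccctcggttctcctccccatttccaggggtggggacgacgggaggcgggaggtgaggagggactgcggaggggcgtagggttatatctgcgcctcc
Lama5: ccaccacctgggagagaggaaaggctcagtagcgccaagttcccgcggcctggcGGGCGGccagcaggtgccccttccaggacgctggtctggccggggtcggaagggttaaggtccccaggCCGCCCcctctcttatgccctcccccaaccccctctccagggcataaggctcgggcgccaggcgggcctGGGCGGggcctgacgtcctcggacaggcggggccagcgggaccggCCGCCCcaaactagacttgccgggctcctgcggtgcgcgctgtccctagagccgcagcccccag
The Lama2 window held 1 CArG box, starting 39 bases before the gene's start, and 1 GC box. A CArG box was found in 1.63% of 32851 promoter windows of the same length. The Nid1 window held 1 GC box and the Lama5 window 4, and 35.7% of all windows held at least 1. The GC content was 50.3% for Lama2, 64.7% for Nid1 and 72.7% for Lama5, beside a median of 52.7% over all windows. The Hspg2 window held 5 GC boxes and the Lamb2 window neither motif. TATAAA (in 13.6% of all windows) and TGANTCA, the AP-1 word (in 7.81%), were searched on both strands and were in none of the 5 windows, and no match overlapped another. A match describes letters in these windows.

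Because the series is about microRNA-202, its mature sequences and the matching words in the members' 3' UTRs are shown. The mature RNAs are from RefSeq (GRCm38.p6, minus strand, chr7:139957695-139957716 for the 3p arm and chr7:139957732-139957752 for the 5p arm), and capitals mark the seed, bases 2 to 8.
mmu-miR-202-3p: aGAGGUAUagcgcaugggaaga
mmu-miR-202-5p: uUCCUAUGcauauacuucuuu
The 3p arm's seed pairs with ATACCTC and the 5p arm's with CATAGGA. In the longest 3' UTR that GENCODE M21 gives each gene, ATACCTC occurred in the 3' UTRs of Lama1 (198 bases long, chromosome 17) and Nid2 (591 bases, chromosome 14), and in 5.87% of 20979 genes with a 3' UTR. CATAGGA occurred in those of Lamc1 (2551 bases, chromosome 1) and Nid1 (2202 bases, chromosome 13), and in 7.60% of genes. Capitals mark the word in the 4 sites.
Lama1: cggacaacagATACCTCtattaaatgg
Nid2: tgtgaaatgtATACCTCaatctttact
Lamc1: gctggctgagCATAGGAcacagagcca
Nid1: attctagagcCATAGGActtcttccta
The other 5 members held neither word, Lama2, Lama4 and Lama5 among them, whose 3' UTRs were 155 to 210 bases long beside a median of 954 bases over all genes. All 4 genes with a word were lower in the knockout spermatogonia (log2 differences -0.49, -0.55, -0.57 and -1.59, in the order of the sites above), and so were 4 of the 5 genes without one.

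The other genes of the basement membrane were taken from a list of 53 in 5 roles, and here test results are given. This list too was chosen with earlier results of these data known, so its p-values and counts are no independent support. Of 45 tested in spermatogonia 10 fell and 1 rose in the knockout, beside 5.76% of all genes called lower and 0.917% called higher. Their median log2 difference was -0.33, beside -0.06 over all genes. Of 38 tested in the cultures 12 fell and 0 rose (2 higher and 14 lower at an unadjusted p under 0.05), beside 5.84% of all genes called lower and 0.324% called higher. The median there was -0.12, beside -0.02 over all genes. Of 14 tested in spermatocytes 0 changed in limma's test, with 1 higher and 0 lower at an unadjusted p under 0.05 and a smallest adjusted p of 0.999. The difference between the knockout effects in spermatogonia and in cultures was tested for 35 of these genes. None passed (smallest adjusted p 0.0615 in limma, 4 higher and 4 lower at an unadjusted p under 0.05), so no gene is said to change in 1 of these preparations alone.

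Among the other laminin chains, 2 of 4 fell in knockout spermatogonia. Lamc3, the gamma 3 chain, was at 2.45 ± 0.110 FPKM in the knockout and 13.5 ± 5.30 in the wildtype (SD, n = 2 each), a log2 difference of -2.02 (SE 0.21, limma adjusted p 5.09e-05). Lamb1, the beta 1 chain of laminin-111, laminin-211 and laminin-511, was at 28.7 ± 1.43 against 72.6 ± 9.25 (SD, n = 2 each; -1.30, SE 0.27, adjusted p 0.00794). The wildtype level of Lamb1 was above that of every member there. That call did not hold with a pseudocount of 0.1 or without replicate 2 of either genotype, whereas that of Lamc3 held in all 10 alternatives. Lama3, the alpha 3 chain of the epidermal laminin-332, was at 1.71 against 1.67 and did not pass (adjusted p 0.965). In the cultures Lamb1 fell from 30.0 ± 7.51 to 16.9 ± 5.53 (SD, n = 3 each; -0.81, SE 0.22, adjusted p 0.0374), a call lost in 8 of 12 alternatives. There Lama3 was at 2.24 ± 0.931 in the knockout and 1.08 ± 0.474 in the wildtype (SD, n = 3 each) and did not pass (adjusted p 0.0608).

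Type IV collagen is the network to which nidogens tie laminin, and 5 of 8 collagens of the list fell in knockout spermatogonia. They were Col4a3, Col4a4, Col4a5, Col4a6 and Col15a1, which encodes a collagen of the outer, interstitial side of basement membranes. Col4a3 and Col4a6 were under 1 FPKM in both knockout libraries, so they entered the test through the wildtype alone and the filter favoured their falls. Col4a4 was at 1.13 ± 0.377 FPKM in the knockout and 9.48 ± 2.20 in the wildtype (SD, n = 2 each; log2 difference -2.29, SE 0.16, limma adjusted p 1.86e-06). Col4a3 was at 0.551 ± 0.118 against 4.51 ± 0.915 (SD, n = 2 each; -1.82, SE 0.12, adjusted p 9.13e-07). Col4a1 and Col4a2, the most widespread type IV chains, were at 34.3 ± 2.58 against 91.1 ± 11.5 and at 27.6 ± 3.39 against 55.8 ± 6.14 (SD, n = 2 each; -1.38 and -0.99). Both were lower in every knockout library and did not pass (adjusted p 0.0515 and 0.158). Col18a1 overlapped, at 57.0 against 60.3 (-0.07, adjusted p 0.940). Col15a1 fell by 1.78, Col4a5 by 1.57 and Col4a6 by 0.99 on the log2 scale (adjusted p 0.000264, 0.000446 and 0.00108), and the call of Col4a6 was lost with a pseudocount of 0.1. In the cultures 4 of 5 fell, namely Col4a1, Col4a2, Col4a5 and Col7a1, the anchoring fibril collagen. Col4a1 was at 6.20 ± 3.18 against 20.9 ± 11.4 and Col4a2 at 5.33 ± 2.52 against 19.0 ± 10.2 (SD, n = 3 each; -1.59 and -1.63, adjusted p 0.00643 and 0.00445). Col7a1 was at 0.681 against 2.30 and Col4a5 at 0.445 against 1.65 (-0.95 and -0.86, adjusted p 0.00158 and 0.00596). Col7a1 and Col4a5 were under 1 FPKM in every knockout culture and entered this test through the wildtype alone. The 4 culture calls were lost when the fit was limited to the culture groups.

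Of 14 further basement membrane proteins tested in spermatogonia 2 fell and 1 rose. Smoc2, a calcium-binding matrix protein, was at 14.1 ± 1.71 against 41.4 ± 13.3 (SD, n = 2 each; -1.46, SE 0.20, limma adjusted p 0.000552). Frem1, a protein of embryonic epithelial basement membranes, was at 0.330 against 2.03 (-1.17, adjusted p 0.000165). It was under 1 FPKM in both knockout libraries and entered the test through the wildtype alone. Npnt, which encodes the integrin ligand nephronectin, rose from 1.02 ± 0.230 to 2.18 ± 0.0460 (SD, n = 2 each; 0.66, SE 0.14, adjusted p 0.00995), and its call was lost in 4 of 10 alternatives. Ntn4, netrin 4, which binds the laminin gamma chain, was at 1.45 against 2.67 and did not pass (adjusted p 0.144). In the cultures 5 of 10 fell, and they were Fbln2, Loxl2, Tinagl1, Sparc and Ntn1. Fbln2, fibulin 2, which binds nidogen and laminin, was at 33.7 ± 12.3 against 105 ± 32.6 (SD, n = 3 each; -1.64, SE 0.25, adjusted p 0.000934), and it was the 1 culture gene of the list whose call held in all 12 alternatives. Sparc, a collagen-binding protein, was at 48.4 ± 21.5 against 172 ± 29.8 (SD, n = 3 each; -1.91, SE 0.44, adjusted p 0.0156), a call lost without replicate 1 of the wildtype or replicate 3 of the knockout. Loxl2, a collagen cross-linking enzyme, fell by 1.64, Tinagl1 by 0.91 and Ntn1, netrin 1, by 0.61 on the log2 scale (adjusted p 0.00329, 0.0122 and 0.0233), and these calls were lost in 1, 4 and 6 of 12 alternatives. Tinagl1 was under 1 FPKM in every knockout culture and entered the test through the wildtype alone.

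**Figure D4:**
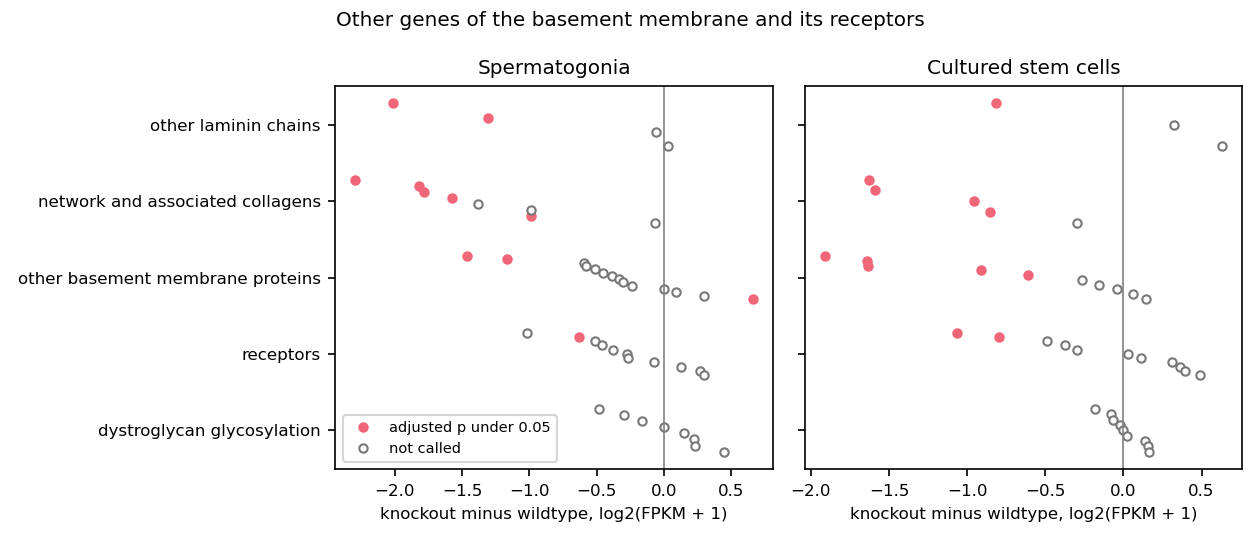
Knockout minus wildtype difference in log2(FPKM + 1) of the listed genes that were tested, by role, in spermatogonia (45 genes) and in cultured stem cells (38 genes); filled red points passed an adjusted p of 0.05 and open points did not, and vertical offsets within a role keep the points apart. In spermatogonia 10 red points lie below 0 and 1 above, and in cultures 12 lie below 0.

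Of the receptors of these proteins, 1 of 11 fell in spermatogonia, Bcam, a receptor for the laminin alpha 5 chain, from 12.0 ± 1.10 to 7.39 ± 0.152 (SD, n = 2 each; -0.63, SE 0.15, limma adjusted p 0.0219). Its call was lost in 5 of 10 alternatives, the fit with a replicate block among them. Itgb1, the beta 1 subunit of the laminin-binding integrins, was at 68.1 against 97.7 and did not pass (adjusted p 0.224), nor did the syndecans Sdc3 (2.18 against 5.48, adjusted p 0.0647) and Sdc2 (7.50 against 10.7, adjusted p 0.144). In the cultures 2 of 11 fell, the heparan sulfate carriers Sdc2 (3.22 ± 0.756 against 6.26 ± 0.701, adjusted p 0.00269) and Sdc3 (2.55 ± 0.736 against 6.74 ± 2.84, adjusted p 0.0175; SD, n = 3 each). There Itgb1 was at 64.2 against 90.5 and did not pass (adjusted p 0.181). The calls of Sdc2 and Sdc3 were lost in 2 and 5 of 12 alternatives. Of the genes that put the laminin-binding sugar on dystroglycan, 0 of 8 changed in spermatogonia (limma, with 1 higher and 1 lower at an unadjusted p under 0.05). Among them Gyltl1b was at 37.1 against 27.2, Pomgnt1 at 12.8 against 10.8 and Pomt2 at 4.50 against 3.70 (adjusted p 0.187, 0.298 and 0.328). In the cultures 0 of 9 changed (limma, with 0 at an unadjusted p under 0.05). In spermatocytes Pomt1 and Pomgnt1, which start and extend the sugar, were at 137 against 139 FPKM and at 51.0 against 52.5 (adjusted p 0.999 each). Dag1, dystroglycan itself, was at 5.90 against 4.61 there, and Sparc, Smoc1 and Smoc2 were at 6.61 against 4.52, 6.36 against 5.99 and 4.64 against 4.92 (adjusted p 0.999 each). Itgb1 was at 1.93 against 1.08 in spermatocytes, Itga7 at 1.59 against 1.74, Sdc4 at 1.57 against 1.21 and B3gnt1 at 1.98 against 1.28 (adjusted p 0.999 each).

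Between the wildtype cell types most of the listed genes differed, and so did most of all genes tested. Of 46 tested, 40 were called lower and 5 higher in spermatocytes than in spermatogonia, beside 7619 lower and 4671 higher of all 13806 genes. Of the 5 higher ones 4 were dystroglycan glycosylation genes. Lamb1 went from 72.6 ± 9.25 FPKM (SD, n = 2) to 0.338 ± 0.0922 (SD, n = 3) and Itgb1 from 97.7 ± 1.60 (SD, n = 2) to 1.08 ± 0.308 (SD, n = 3), with limma adjusted p of 5.65e-12 and 1.47e-12. Of 48 tested, 13 were called higher and 19 lower in cultures than in spermatogonia, beside 30.5% and 22.6% of all 12902 genes. Among the listed collagens 7 of 9 were lower in the cultures. Sdc4, a syndecan, was at 463 ± 88.3 in the cultures (SD, n = 3) and 233 ± 6.70 in spermatogonia (SD, n = 2; log2 difference 0.97, SE 0.21, adjusted p 0.00136).

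Markers of somatic and of germ cells differed between the same libraries. In spermatogonia 7 of 9 peritubular myoid markers fell in the knockout (limma, median log2 difference -1.26), beside 5.76% of all genes called lower. Lmod1 and Actg2, a smooth muscle actin, were under 1 FPKM in both knockout libraries. They entered the test through the wildtype alone, and the filter favoured a fall for them. The summed FPKM of the 9 markers was 144 and 195 in the wildtype and 35.4 and 31.9 in the knockout. Acta2, smooth muscle actin, was at 107 ± 28.1 in the wildtype and 13.7 ± 2.12 in the knockout (SD, n = 2 each). Of 9 fibroblast and mesenchyme markers 7 fell (median -1.71), with sums of 564 and 730 against 185 and 204. Sertoli markers had a median difference of -0.37, with 0 of 9 called and sums of 618 to 877 against 492 to 598. The sums of Leydig markers overlapped between the genotypes (0 of 5 called, 120 to 197 against 180 to 183). The sums of endothelial markers overlapped too (0 of 6 called, 16.7 to 19.7 against 15.7 to 25.2). Of 10 such markers, tested or not, 6 were higher and 2 lower in both knockout libraries. Among all genes tested in spermatogonia these shares were 21.2% higher and 34.9% lower, and counts from so short a list are a description. Cldn5, a junction protein, had 1.34 and 1.71 FPKM in wildtype and 3.20 and 5.19 in knockout spermatogonia. Kdr, a growth factor receptor, was at 3.28 and 3.49 against 0.941 and 2.05. Macrophage markers summed to 3.26 and 5.71 against 2.95 and 3.23. Of 4 markers of differentiating spermatogonia 3 were higher in both knockout libraries, beside 21.2% of all genes tested, and 0 were called. Their median difference was 0.64, with sums of 123 and 156 against 236 and 184. Kit, a receptor of differentiating spermatogonia, was at 18.4 ± 1.63 in the wildtype and 28.4 ± 2.25 in the knockout (SD, n = 2 each). Spermatocyte markers summed to 66.6 and 76.3 against 123 and 94.6, with 0 of 4 called. Spermatid markers summed to 5.19 and 7.79 in the wildtype and to 5.66 and 87.6 in the knockout, the last in replicate 2. Lama2, Nid1 and the 5 collagens that fell were lower in the same 2 libraries in which the myoid, fibroblast, Sertoli and macrophage sums were lower. In these libraries the sums of differentiating spermatogonia and of spermatocyte markers were higher. With 2 libraries of each genotype, any list that separates the genotypes coincides with these genes. The part of any of these cell types in the members' differences was not tested.

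In the cultures the same pair of lists was lower in the knockout. Of 6 tested myoid markers 4 fell (median -1.47, sums 72.7 to 131 against 14.7 to 41.9). Actg2 was under 1 FPKM in every knockout culture and entered this test through the wildtype alone. Of 8 tested fibroblast markers 7 fell (median -1.35, sums 319 to 552 against 99.8 to 195), beside 5.84% of all genes called lower. Lama4 was lower in the same libraries, as were the macrophage and Leydig sums given below. Replicate 3 had the lowest fibroblast sum of both genotypes, and it was lowest for 9 of 9 members in the wildtype and 7 of 9 in the knockout, Lama4 and Nid2 among them. The myoid sum of replicate 3 was the highest of the wildtype cultures and the lowest of the knockout cultures. Sertoli markers summed to 6.42 to 10.7 in the cultures, with Fshr, the receptor for follicle-stimulating hormone, at 0 in all 6 libraries and Amh, a hormone of immature Sertoli cells, at 0.300 ± 0.219 in the wildtype (SD, n = 3) beside 185 ± 46.3 in wildtype spermatogonia (SD, n = 2). Macrophage markers summed to 148 to 174 in the wildtype and 90.0 to 128 in the knockout cultures, with 1 of 5 called lower and a median log2 difference of 0.09. Their sum was made up mostly of Lyz2, at 152 ± 11.2 in the wildtype and 95.3 ± 21.5 in the knockout (SD, n = 3 each). Leydig markers summed to 3.48 to 6.12 in the wildtype and 1.52 to 2.36 in the knockout (0 of 2 called), with Cyp17a1 and Lhcgr at 0 in all 6. Markers of undifferentiated spermatogonia summed to 254 to 330 in the wildtype and 337 to 384 in the knockout, with 0 of 7 called. The sums of endothelial markers overlapped, at 8.93 to 15.9 against 13.7 to 22.7, with 0 of 4 called. Between the genotypes the nidogens did not share the direction of the myoid and fibroblast lists, with means of 98.9 against 77.8 FPKM for Nid1 and 79.8 against 62.5 for Nid2 and overlapping ranges. Leaving out 1 library gave log2 differences of 0.06 to 0.70 for Nid1 and 0.15 to 0.53 for Nid2. The part of these cells in the culture levels was not tested.

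In spermatocytes the library that was highest of the knockout group for all 9 members also had the highest Sertoli sum (36.9, beside 8.71 and 9.52), fibroblast sum (8.10, beside 2.70 and 4.31) and myoid sum (39.3, beside 21.4 and 26.6). Its Leydig (114), endothelial (7.33), macrophage (3.17) and spermatid (4699) sums were the highest of the knockout group too. The myoid sum of the spermatocyte libraries, 21.4 to 39.3, was made up mostly of Actg2, at 20.4 ± 3.39 FPKM in the wildtype (SD, n = 3). In spermatogonia Actg2 was at 2.15 ± 0.432 in the wildtype and 0.463 ± 0.127 in the knockout (SD, n = 2 each). Mylk was at 5.81 ± 1.07 and Acta2 at 2.04 ± 0.211 in wildtype spermatocytes (SD, n = 3 each). The fibroblast sum of the spermatocyte libraries was 2.70 to 8.10. Lama2 was at 1.75 to 3.23 there with Pdgfra, a mesenchymal receptor, at 0.163 ± 0.0131 in the wildtype (SD, n = 3). The part of other cells in these low levels was not tested.

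**Figure D5:**
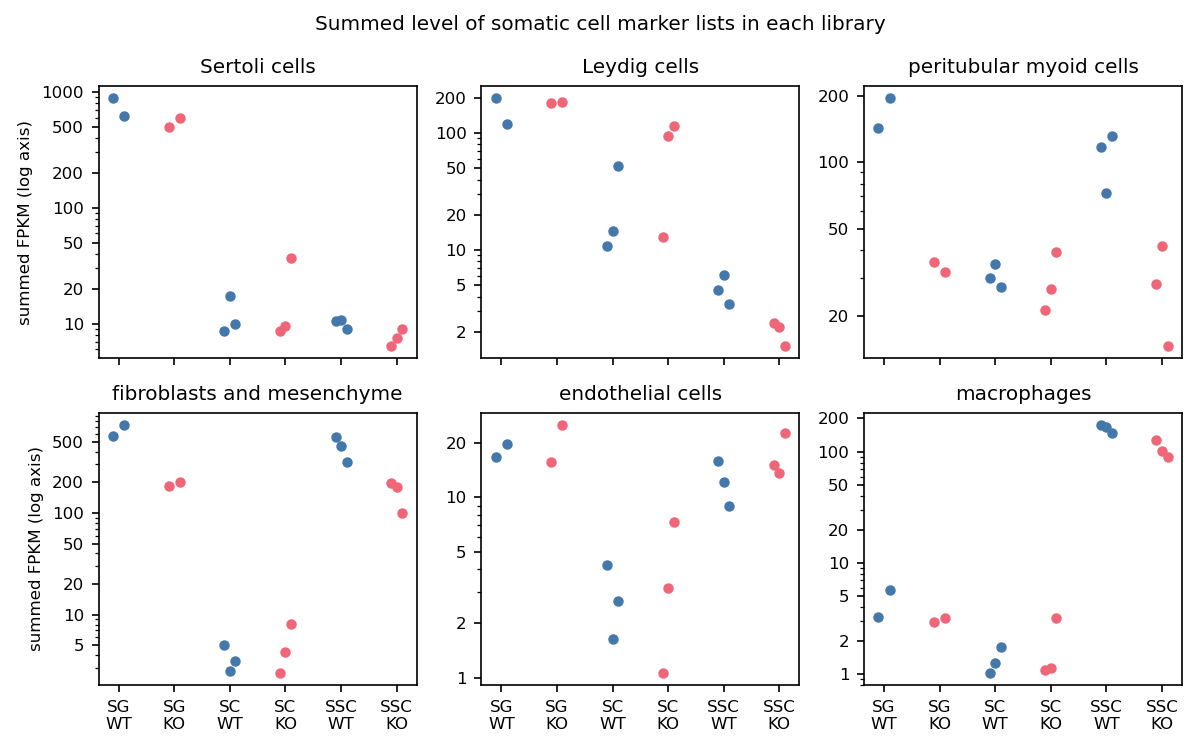
Summed FPKM (log axes, which differ between panels) of 6 lists of somatic cell markers in each library, by group, wildtype in blue and knockout in red. The myoid sum lies at 144 and 195 in wildtype and 35.4 and 31.9 in knockout spermatogonia, and the Sertoli sum at 618 to 877 and 492 to 598.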

How the data were processed

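The 16 libraries were RNA-seq of isolated spermatogonia, isolated spermatocytes and cultured spermatogonial stem cells. Per the labels' protocols, TRIzol was used for total RNA, the directional NEBNext Ultra kit for the libraries and a HiSeq-X10 for sequencing. The authors deposited a value in FPKM for each gene symbol of a library. The mouse build mm9, Cufflinks 2.0.2 and TopHat2 2.0.6 are named by the submitters' processing notes, which give them no roles or settings. Depth is unknown, since the values are not read counts, and intervals for counting error were not computed. Nothing in the sources used here says how the authors split reads among overlapping genes.

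Of 23021 rows, the 728 rows of 259 repeated symbols were left out, which left 22293 genes. Values were analysed as log2(FPKM + 1) with two-sided moderated tests in limma 3.58.1 under R 4.3.3 (trend = TRUE), with 1 mean for each of 6 groups over all 16 libraries, 14480 genes and 10 residual degrees of freedom. Each gene was tested when 2 or more libraries of the cell types compared reached an FPKM of 1. Within a comparison, p-values were adjusted after Benjamini and Hochberg and called under 0.05. The procedure was tested on simulated data.

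The 9 genes, the lists of pathway and marker genes and the tests were chosen with earlier results of these data known. Named were all members and up to 4 pathway genes per role with the smallest p in each knockout contrast. The gene most like each member was named, with the second for Lama2 and Lama4 only, leaving out unnamed gene models. In addition, Col4a6 and Ntn1 passed but ranked outside the first 4 of their role, and they were named after their values were seen. So were Col4a1 and Col4a2 in spermatogonia, Col18a1 and the marker genes Acta2, Actg2, Amh, Cldn5, Cyp17a1, Fshr, Kdr, Kit, Lhcgr, Lmod1, Lyz2, Mylk and Pdgfra. A few genes that the rule would name are not reported here. Among the listed symbols, Lamb1-1, Rhox5, Adgre1 and Hba-a1 had no row under that spelling.

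The alternative analyses used a pseudocount of 0.1, no filter on low values, scaling by the median ratio, quantile normalization, a fit to the compared groups alone, a replicate block, and leaving out each library. Promoter, microRNA and 3' UTR sequences came from RefSeq (GRCm38.p6) and GENCODE M21, and since the files use mm9 no coordinates were taken from them. Tables and figures were made with matplotlib 3.10.9, pandas 2.3.3, numpy 2.4.6 and scipy 1.17.1 under Python 3.11.15.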

Additional observations from a re-analysis of the deposited data

How the results depend on the processing

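Among the members, Lama5, Lamc1, Nid2 and Hspg2 were called in knockout against wildtype spermatogonia when the fit was limited to the spermatogonial groups. In the cultures 4 of 7 tested members changed sign in some alternative, and Hspg2 was called lower without replicate 3 of the wildtype. Of the named pathway calls 7 of 11 in spermatogonia and 1 of 12 in cultures were kept in all alternatives.

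The number of genes called higher in knockout spermatogonia was 110, and it was 26 with a pseudocount of 0.1, 180 without the filter, 430 with quantile normalization, 251 with the compared groups alone and 69 with the replicate block. Leaving out 1 library gave 25 to 76. The number called lower was 691, and it was 165 with a pseudocount of 0.1, 647 with quantile normalization and 323 to 436 without 1 library. In the pathway list the count called higher was 1, and it was 0 with a pseudocount of 0.1 and 2 with quantile normalization. The count called lower was 10, and it was 7 with a pseudocount of 0.1 and 14 with the compared groups alone. It was 11 with quantile normalization and 11 with the replicate block.

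In spermatocytes 0 genes were called higher and 1 lower. Without the filter these were 1 and 6, and without 1 library 0 to 8 and 0 to 33. The count called lower was 3 with median-ratio scaling, 5 with quantile normalization, and 0 with a pseudocount of 0.1, with the compared groups alone and with the replicate block.

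In the cultures 39 genes were called higher, and this was 11 with a pseudocount of 0.1, 88 with quantile normalization, 4 with the compared groups alone, 18 with the replicate block and 10 to 83 without 1 library. The 704 called lower became 388 with a pseudocount of 0.1, 251 with the compared groups alone and 473 to 761 without 1 library. The 12 pathway genes called lower became 6 with a pseudocount of 0.1, 2 with the compared groups alone and 7 to 12 without 1 library, the 7 being without replicate 3 of the knockout. The 0 called higher became 1 with quantile normalization and 0 to 1 without 1 library. The count of pathway genes whose knockout effect differed between spermatogonia and cultures was 0, and it was 2 without the filter, 1 with quantile normalization, 1 with the replicate block and 0 to 1 without 1 library. In wildtype cultures against spermatogonia, genes called higher went from 3940 to 2613 to 3973 without 1 library, the lowest without replicate 1 of the spermatogonia. The cause was not tested for any of these changes.

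Scaling moved the median difference of all genes in the wildtype comparisons, from -0.73 to -0.46 (median ratio) and -0.37 (quantile) for spermatocytes against spermatogonia, from -0.77 to -0.41 and -0.37 for spermatocytes against cultures, and from 0.12 to 0.00 with the median ratio for cultures against spermatogonia. Genes that did not pass and changed sign included Lama3 in spermatogonia (-0.12 to 0.18 without 1 library). In spermatocytes they were Pomt1 (0.039 with quantile normalization, -0.051 to 0.018 without 1 library), Pomgnt1 (0.0031 with quantile normalization, -0.12 to 0.0085) and Sparc (-0.52 to 0.51, the lowest without replicate 3 of the knockout).

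Replicate numbers are shared by the labels of the groups, but samples with the same number did not deviate together (r of deviations -0.12 in spermatogonia, -0.32 to 0.25 in spermatocytes and -0.06 to 0.22 in cultures), so they were not taken as pairs. Replicate numbers are those of the labels. Sheet names inside the files of the 4 spermatogonial libraries carry a number 1 higher, in both genotypes alike, so pairs within a cell type are the same by either, and the block in comparisons between cell types used the labels' numbers. With the replicate block Bcam lost its call. With the numbers crossed in spermatogonia, an alternative chosen after seeing the data, 110 genes were called higher and 610 lower, and 1 and 11 pathway genes. With 2 or 3 libraries per group and an unknown depth, levels under 1 FPKM limit what can be said of the members in spermatocytes.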
